A study of Mus musculus with 2 samples.

Results

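H3K27me3 regions at gene 5′ ends were followed in rib chondrocytes. They are the regions of the deposited list in which at least 1 gene is named and the nearest 5′ end of a named gene lies within 2500 bp of the region's edge, and there were 578 of them among 2017 regions in all (28.7%), or 45.0% of the 1284 regions near any gene. The series holds 1 ChIP library made with an anti-H3K27me3 antibody and 1 library of 2% input DNA, the same chromatin without pull-down, and no replicates. Chondrocytes, the cells of cartilage, came from the ribs of 11 wild-type CD1 mice at postnatal day 2.5 and were pooled before they were kept overnight in medium with 5% serum on 2 dishes of 10 cm. No animal carried an altered allele and no agent was given. All values are therefore those of a single pooled culture, no test between groups was possible, and intervals given below are 95% Clopper-Pearson intervals, or binomial intervals for medians, that cover counting error only.

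H3K27me3 is histone H3 trimethylated at lysine 27, the product of the Polycomb repressive complex PRC2, whose catalytic subunit is Ezh1 or Ezh2 and whose subunit Eed binds the finished mark and helps it to spread. The mark is best known at silent genes of development, where it often forms broad stretches around CpG-rich 5′ ends, and it is copied through cell division. Genes that a committed cell type no longer uses, such as transcription factors of other lineages, are its classical sites.

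The 5′ regions lay at 517 of the 922 genes named in the list (56.1%). Of these names 482 were protein-coding, 17 encoded long noncoding RNAs, 9 encoded microRNAs, 6 were transcribed pseudogenes and 3 had no RefSeq match. H2-T3 and H2-Tw3 match the same RefSeq gene, as do Vax2os1 and Vax2os2, so the 514 matched names stand for 512 genes, of which 481 are protein-coding. The promoters of 5 genes whose 5′ end the list places within a region are printed to show what kinds of 5′ end were covered. They are those of Prdm12, a zinc finger regulator of pain-sensing neurons, Cdx2, a homeobox regulator of the intestine, Fgf4, a growth factor of the early embryo and the limb bud, Tbx4, a T-box factor of the hindlimb, and H2-T3, a nonclassical MHC class I gene. They were matched by symbol, since the regions are given on mm9. Each runs 5′ to 3′ on the gene's strand from 250 bases before the start to 50 bases after it (RefSeq, GRCm38.p6), with every CG dinucleotide in capitals.
Prdm12: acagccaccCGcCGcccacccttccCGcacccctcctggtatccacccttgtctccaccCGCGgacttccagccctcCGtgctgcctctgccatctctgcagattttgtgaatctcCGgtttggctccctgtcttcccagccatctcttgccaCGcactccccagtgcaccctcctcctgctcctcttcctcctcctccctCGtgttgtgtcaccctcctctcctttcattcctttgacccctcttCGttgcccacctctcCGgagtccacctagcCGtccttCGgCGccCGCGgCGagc
Cdx2: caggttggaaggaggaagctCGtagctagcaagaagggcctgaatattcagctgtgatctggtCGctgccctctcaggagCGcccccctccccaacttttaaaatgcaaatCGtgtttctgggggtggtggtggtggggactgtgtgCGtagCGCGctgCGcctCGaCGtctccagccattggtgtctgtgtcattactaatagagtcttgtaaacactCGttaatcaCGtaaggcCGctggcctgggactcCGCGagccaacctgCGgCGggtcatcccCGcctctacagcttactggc
Fgf4: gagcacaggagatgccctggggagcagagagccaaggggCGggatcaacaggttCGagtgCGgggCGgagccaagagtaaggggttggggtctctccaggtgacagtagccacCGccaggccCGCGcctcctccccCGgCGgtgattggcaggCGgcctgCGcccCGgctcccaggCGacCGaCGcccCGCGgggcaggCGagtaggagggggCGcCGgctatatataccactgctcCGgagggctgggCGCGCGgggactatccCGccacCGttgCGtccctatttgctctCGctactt
Tbx4: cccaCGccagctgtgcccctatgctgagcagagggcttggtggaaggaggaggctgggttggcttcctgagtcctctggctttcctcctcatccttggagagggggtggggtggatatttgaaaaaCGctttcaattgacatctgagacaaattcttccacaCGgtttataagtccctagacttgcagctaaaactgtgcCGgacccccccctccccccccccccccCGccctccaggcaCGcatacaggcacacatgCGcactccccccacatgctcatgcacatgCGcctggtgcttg
H2-T3: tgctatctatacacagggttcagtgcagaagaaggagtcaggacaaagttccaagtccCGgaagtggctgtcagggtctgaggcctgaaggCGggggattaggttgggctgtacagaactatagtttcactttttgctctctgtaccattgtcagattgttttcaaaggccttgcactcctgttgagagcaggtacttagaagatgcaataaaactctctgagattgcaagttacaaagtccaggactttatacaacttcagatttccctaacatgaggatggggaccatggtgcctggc
In GRCm38.p6 these windows are chr2:31639787-31640086 (plus strand, Prdm12), chr5:147307200-147307499 (minus strand, Cdx2), chr7:144861136-144861435 (plus strand, Fgf4), chr11:85896515-85896814 (plus strand, Tbx4) and chr17:36190102-36190401 (minus strand, H2-T3). They held 17, 18, 28, 8 and 2 CG dinucleotides, in that order. The median of 17492 protein-coding genes, each taken by the mean of its promoter windows, was 13. A mean of as many CG as in the Fgf4 window or more was found in 17.2% of all these genes, for Prdm12 in 42.8%, for Cdx2 in 40.3%, for Tbx4 in 62.7% and for H2-T3 in 88.0%. Covered 5′ ends thus ranged from CG-rich to CG-poor in these examples. Whether the 5′ genes as a group had CG-rich promoters was not compared, since a promoter was at hand for 355 of 481 protein-coding 5′ genes (73.8%), short of the 80% needed for such a comparison.

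MicroRNA genes are shown as well, because their mature product is the whole of their function. The 9 loci were chosen after their values were seen. Mature arms are printed from RefSeq with the seed, bases 2 to 8 that pair with target messages, in capitals.
miR-196a-5p (Mir196a-1 and Mir196a-2): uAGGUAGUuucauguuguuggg
miR-10b-5p (Mir10b): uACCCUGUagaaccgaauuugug
miR-9-5p (Mir9-3): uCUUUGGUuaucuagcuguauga
miR-203-3p (Mir203): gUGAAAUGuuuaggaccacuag
miR-26b-5p (Mir26b): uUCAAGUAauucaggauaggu
Both Mir196a-1 and Mir196a-2 encode the same miR-196a-5p, which targets messages of Hox genes, and no seed was shared between the other printed arms. For Mir1-1, Mir124a-1 and Mir124a-3 only values are given.

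Of the 578 regions 92 (15.9%) covered the 5′ end of their nearest gene, 269 (46.5%) lay inside the gene, 202 (34.9%) lay upstream and 15 lay past the 3′ end of a short gene. The nearest edge was a median of 942 bp from the 5′ end. Counted as pairs of a region and a gene, there were 624, since 537 regions lay within the limit of 1 gene, 36 of 2 genes and 5 of 3 genes. Regions inside genes were listed in 286 pairs up to 2500 bp from the 5′ end and in 135 pairs from there to 5000 bp, whereas upstream pairs numbered 229 and 182. Pairs per 500 bp thus fell off with distance more inside genes than upstream of them, although genes shorter than 5000 bp hold no far inside position.

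**Figure D1:**
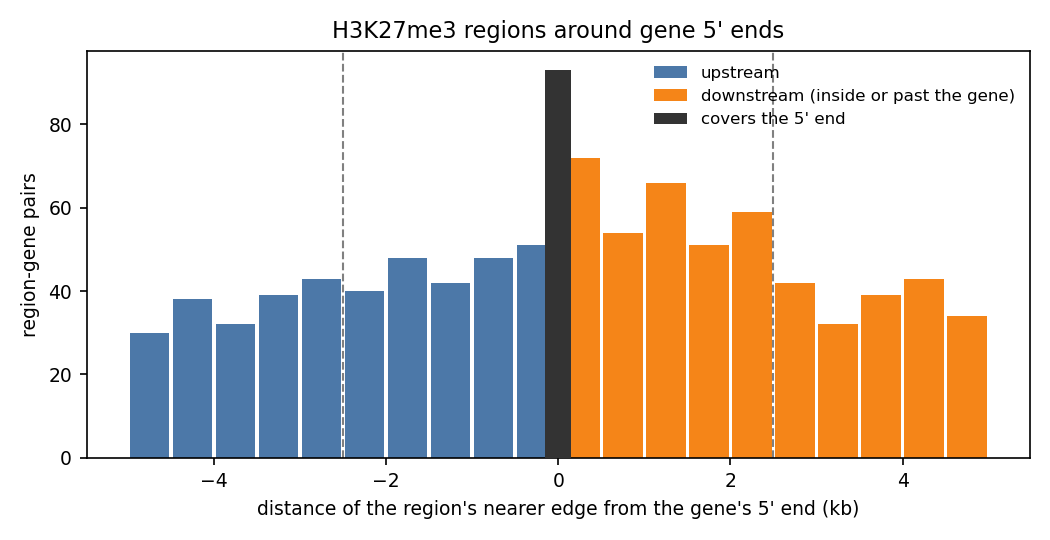
Region-gene pairs in bins of 500 bp by distance of the region's nearer edge from the 5′ end (x axis, kb; y axis, number of pairs; dashed lines, the limit of 2500 bp). The dark bar holds the 93 pairs whose region covers the 5′ end, the blue bars fall from 51 pairs beside the 5′ end to 30 at the far upstream edge, and the orange bars from 72 to 34.

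Just inside the limit of 2500 bp were regions at Prss36 (2482 bp, 26 ChIP and 2 input tags), Cyp26a1 (2490 bp, 71 and 2 tags) and Fbxw8 (2499 bp, 37 and 0 tags). Just outside were those at Rfx4 (2513 bp, 66 and 8 tags), Nr5a1 (2530 bp, 56 and 3 tags) and Otx2 (2545 bp, 36 and 0 tags).

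The 5′ regions held 45560 ChIP tags and 5907 input tags over 849666 bp, a ratio of 7.71 (7.51 to 7.93) that is not scaled for depth, which the list does not give. A tag is a mapped read as the region caller counts it. Single regions held from 23 to 580 ChIP tags with a median of 65, and from 0 to 148 input tags with a median of 8. Among the 552 regions with any input tag, 375 (67.9%) held an even number of them, against 284 of 578 (49.1%) for ChIP tags. Whether both ends of a fragment were counted was not tested, and the intervals take each tag as independent. ChIP tags rose with the length of a region (Spearman's rho 0.98 over 578 regions of the same library, a description), so the order by tags is nearly the order by length.

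The longest and most heavily tagged 5′ regions included both immune genes of multigene families and developmental regulators. Raet1a, which encodes a ligand of the NKG2D receptor of killer cells, had the most tags, with 580 ChIP and 116 input tags over 7799 bp at chr10:21874363-21882162 (mm9). H2-Q1, an MHC class I gene, followed with 544 and 68 tags over 8278 bp at chr17:35455229-35463507, the longest 5′ region. Both belong to families with similar copies, and how reads from such copies were placed was not tested.
Cwc22, which encodes a splicing factor, had 437 ChIP tags beside 148 input tags, a ratio of 2.95 (2.45 to 3.58). Its input was 3.63 times the level of 9.21 tags per kb below which the deposited ratio replaces input by a floor. Input reached 2 times that floor in 8 of the 578 regions, those at Cwc22, Gm15698, 2210409E12Rik, H2-T3 with H2-Tw3, Mir26b (2 regions), Cdh1 and Plk5. Without these 8 regions the ratio was 8.01.

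**Figure D2:**
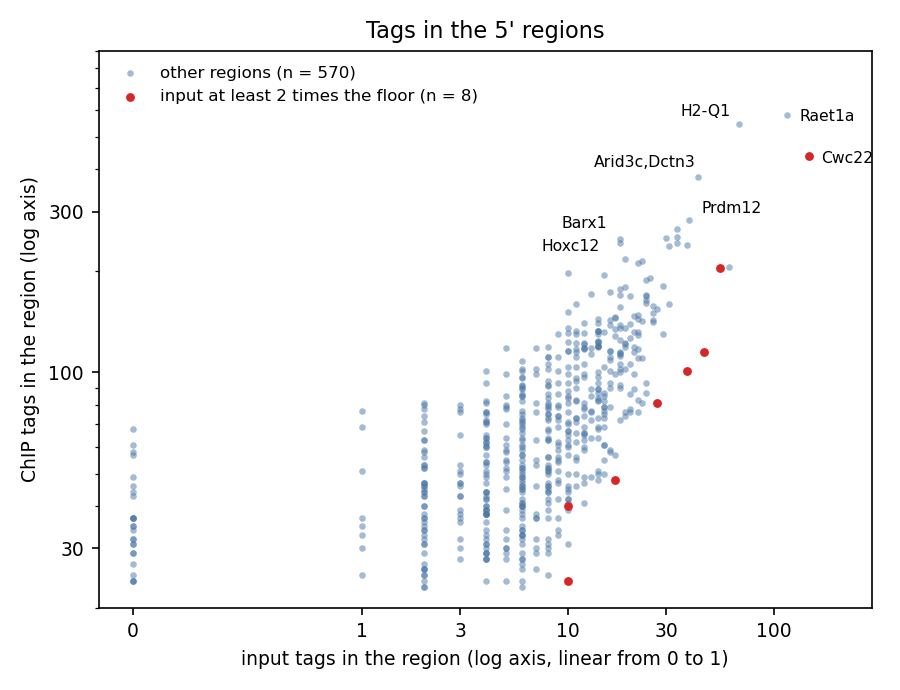
ChIP tags (y axis) against input tags (x axis) in each of the 578 regions at 5′ ends, both on log axes (x linear from 0 to 1). The 8 red regions with input of at least 2 times the floor lie at the lower right edge of the cloud, and Raet1a (580 ChIP tags), H2-Q1 (544) and Cwc22 (437) lie at the top.

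Developmental regulators filled most of the other leading places. Prdm12 had 284 ChIP and 39 input tags over 5543 bp at chr2:31493348-31498891 (mm9, as are the next positions), and Cdx2 had 267 and 34 over 5511 bp at chr5:148113748-148119259. Tbx4 had 252 and 34 tags over 4996 bp at chr11:85702949-85707945. In each of these 3 genes the region ran across the 5′ end. Barx1, a homeobox gene of the stomach and the teeth, had 249 ChIP tags beside 18 input tags at chr13:48758438-48762713, a ratio of 13.8 (8.57 to 23.7). Hoxc12 had 242 and 18 tags at chr15:102768450-102772050, a ratio of 13.4 (8.33 to 23.1). At Barx1 and Hoxc12 input tags were fewer than at Prdm12, Cdx2 and Tbx4 for a like number of ChIP tags. Their regions were shorter, with 4275 and 3600 bp, and the intervals of the 5 ratios overlapped. Per kb, input was 0.457 and 0.543 times the floor at Barx1 and Hoxc12. It was 0.764, 0.670 and 0.739 times at Prdm12, Cdx2 and Tbx4. Bcl6b, a transcriptional repressor, had 250 and 30 tags, and a region of 6534 bp at Arid3c, a DNA-binding factor, and Dctn3, a dynactin subunit, had 380 and 43. Among the 10 longest were also Tlx1, a homeobox gene of the spleen, with 4751 bp, and Emx1, a homeobox gene of the cerebral cortex, with 4626 bp.
By height, the highest point of the smoothed ChIP profile, the 5′ regions ranged from just over 8 to 18.6 with a median of 8.66 (8.61 to 8.74), and the list holds no region under 8. The highest were those of Cwc22 (18.6), H2-Q1 (17.9), Raet1a (15.6), Gm15698 (14.2), H2-T3 with H2-Tw3 (13.1) and 2210409E12Rik (12.6), 3 of which are among the 8 with high input. Also among the 10 highest were Pax7 (12.1), the factor of muscle stem cells, Wnt7a (11.8), a secreted signal, and Cyp26c1 (11.6), an enzyme that degrades retinoic acid. Of the 578 regions 93 (16.1%) reached a height of 10.

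The median 5′ region was longer than the median region at the other places. Its length was 1220.5 bp (1121 to 1295), against 991 bp (920 to 1072) for 458 regions inside genes beyond the limit, 1074 bp (986 to 1213) for 248 regions flanking genes and 1005 bp (928 to 1055) for 733 regions with no gene within 5000 bp. At least 2000 bp were covered by 22.5% of 5′ regions (19.1 to 26.1) and by 12.4%, 14.1% and 15% of the others. Median deposited tag enrichment was 5.62 (5.56 to 5.68) at 5′ ends and 5.75, 5.69 and 5.75 elsewhere, and in 440 of the 578 regions (76.1%) it rests on the floor set for input. Median heights were 8.66, 8.64, 8.72 and 8.69 and median ChIP tags per kb were 54.1, 54.9, 54.5 and 54.5, in the same order. Regions of 1 library are not replicates, so no test was made, and since distance was taken from the nearer edge, a longer region reaches a 5′ end more readily. Regions that covered the 5′ end had a median of 1739.5 bp (1449 to 2155), those inside the gene 1160 bp (1064 to 1341) and those upstream 1097 bp (990 to 1216), and ChIP tags exceeded input tags 7.23, 7.96 and 7.76 times in these 3 places.

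**Figure D3:**
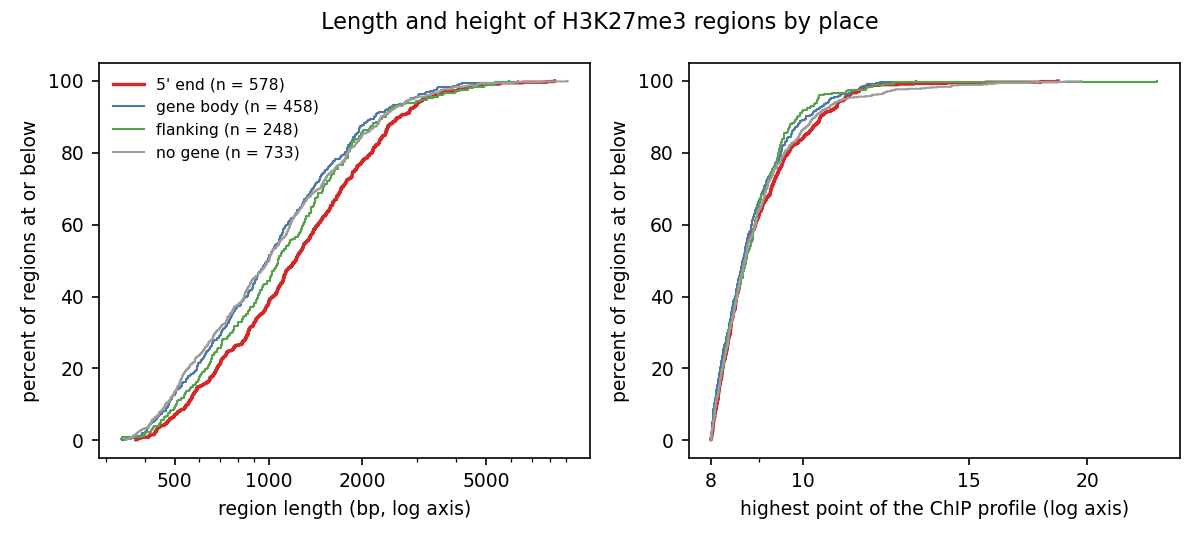
Cumulative share of regions (y axis, percent) by length (left, bp, log axis) and by the highest point of the ChIP profile (right, log axis) for regions at 5′ ends, in gene bodies, flanking genes and with no gene. The red curve of the 5′ regions lies to the right for length, with a median of 1220.5 bp, and near the others for height, with a median of 8.66.

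At least 2 regions stood at the 5′ end of 90 of the 517 genes. A single 5′ region was listed for 427 genes, 2 for 75, 3 for 13 and 4 for 2 genes, Hoxa10 and Gpr120, which encodes a fatty acid receptor. At Gpr120 the 4 regions held 231 ChIP and 16 input tags, covered the start and ran to both sides of it. Insl3, a hormone of the testis, had 3 regions with 290 and 37 tags, and Nodal, a TGF-β family ligand of the early embryo, had 3 with 147 and 12 tags. Joined across gaps of up to 3000 bp, the 578 regions formed 485 stretches, of which 75 held at least 2 regions. The longest ran over 9952 bp with 4 regions at Hoxa10, Hoxa11 and the antisense gene Hoxa11as, the next over 9001 bp at Vax2, an eye homeobox gene, with Vax2os1 and Vax2os2, and the next over 8651 bp at Hoxd11 and Hoxd12.
Genes that shared a region could not be told apart. The 5 regions within the limit of 3 genes were 2 at Vax2 with its antisense genes, 1 at Dlx6 with Dlx6as and Dlx6os1 (171 ChIP and 13 input tags), 1 at Hoxa10, Hoxa11 and Hoxa11as (168 and 20 tags) and 1 at the histone genes Hist3h2a, Hist3h2ba and Hist3h2bb (63 and 6 tags). All but the histone genes pair a homeobox gene with an antisense transcript.

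Against a background of 2.2% of protein-coding genes with a 5′ region (481 of 21900), 120 of 383 genes in 13 lists of transcription factor families had one, or 31.3% (26.7 to 36.2). They made up 23.2% (19.6 to 27.1) of the 517 genes with a 5′ region, and 18.3% of the 398 matched genes that had only further regions. Their 159 regions held 15068 ChIP and 1831 input tags, a ratio of 8.23 (7.84 to 8.64). The regions at all protein-coding 5′ genes, which include these, had 7.80 (7.59 to 8.03). None of the 8 regions with high input lay at a gene of these lists, and without those 8 the ratio of all 5′ regions was 8.01. The median gene of these lists had 104 ChIP tags in its 5′ regions and the median protein-coding 5′ gene 71. The lists were chosen with earlier results of these data known and neighbouring genes share regions, so these shares are a description. The 21900 genes are those of RefSeq, matched by symbol. Which genes the deposited list could name is not known, so the background may be too low.

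Hox genes, which give cells their position along the body axis, had a 5′ region in 19 of 39 cases (48.7%, 32.4 to 65.2). Hoxa10 had the most tags, with 463 ChIP and 59 input tags in 4 regions, followed by Hoxc12 (325 and 29 in 2 regions), Hoxa11 (308 and 34 in 2 regions) and Hoxd10 (206 and 43 in 2 regions). By position in the clusters, a split chosen after the values were seen, 13 of the 16 genes with paralogue numbers 9 to 13 had a 5′ region (81.2%, 54.4 to 96.0), and 6 of the 23 with numbers 1 to 8 (26.1%, 10.2 to 48.4). In the A cluster all 3 genes with a 5′ region, Hoxa10, Hoxa11 and Hoxa13, were of the higher numbers. In the C cluster all 5 genes from Hoxc9 to Hoxc13 had a 5′ region and none of the 4 others. The only such region of Hoxc11 lay past the gene's 3′ end, 2237 bp from the 5′ end. The B and D clusters also had genes with a 5′ region at low numbers, such as Hoxb1 (169 and 24 tags), Hoxd4 (116 and 10 tags) and Hoxd3 (73 and 6 tags). Another 6 Hox genes, Hoxb3, Hoxb4, Hoxb8, Hoxb9, Hoxd1 and Hoxd13, had only regions beyond the limit. The count of Hox genes depended on the setting, with 11 at 1000 bp and 4 at a height of at least 10. Neighbours share regions and are not independent.

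**Figure D4:**
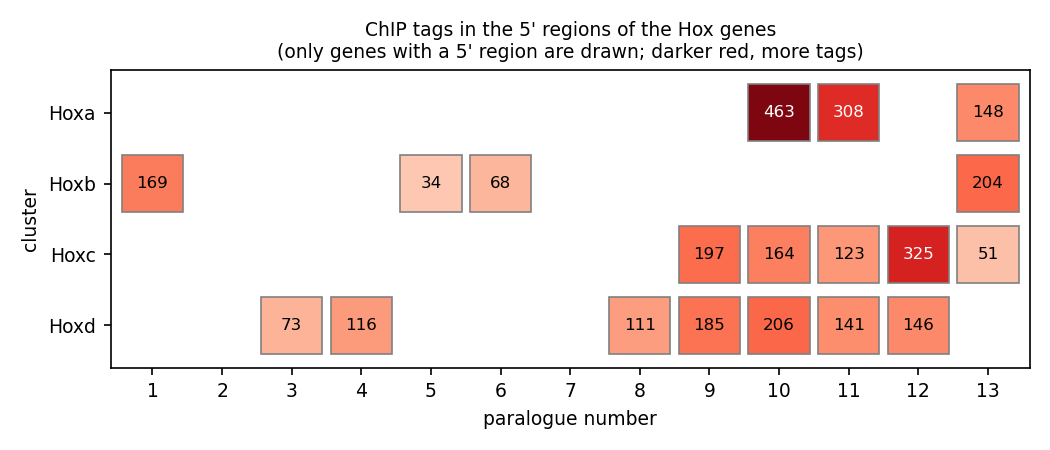
The 19 Hox genes with a 5′ region by cluster (rows) and paralogue number (columns). Red squares carry the number of ChIP tags in 5′ regions, from 34 at Hoxb5 to 463 at Hoxa10, with darker red for more tags, and an empty place is either a gene without a 5′ region or a number that the cluster lacks. Of the squares, 13 lie at numbers 9 to 13.

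In the other homeobox and Pax lists the shares ran from 19.0% to 77.8%. Of the Dlx and Msx genes, regulators of the jaw, limb and forebrain, 7 of 9 had a 5′ region, led by Dlx6 (214 ChIP and 15 input tags), Dlx1 (141 and 14), Msx3 (116 and 4) and Dlx4 (91 and 8). Of the LIM homeobox genes, which set neuron types and limb pattern, 8 of 12 had one, led by Lhx3 (213 and 34), Lhx5 (205 and 22), Lhx2 (189 and 36) and Lmx1b (145 and 17). Pax genes had one in 5 of 9 cases. Among them, Pax1 had 156 and 24 tags and Pax9 had 97 and 12, both factors of the early vertebral column, and Pax7 (100 and 14) and Pax3 (81 and 4) act in muscle precursors. Nkx genes had one in 5 of 14 cases, with Nkx2-2 (85 and 13), Nkx2-9 (72 and 4), Nkx6-1 (47 and 3) and Nkx2-6 (42 and 6). The list of sine oculis, Irx and Meis homeobox genes had 4 of 21, led by the eye genes Six3 (306 and 31) and Six6 (179 and 19), then Six2 (63 and 12) and Irx6 (26 and 2). POU genes had 3 of 14, Pou2f3 (55 and 9), Pou2f2 (40 and 6) and Pou4f3 (39 and 4). Of the 66 remaining homeobox genes 29 had one, led by Barx1 (368 and 32 tags in 2 regions), Cdx2 (345 and 37 in 2), Vax2 (345 and 36 in 2) and Gsx2 (264 and 36 in 2).

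In the lists of factors without a homeobox the shares ran from 15% to 29.4%. The Forkhead list had 7 of 44, with Foxf1a (177 and 18 tags), Foxn4 (159 and 15), Foxb1 (135 and 10) and Foxe1 (121 and 19). T-box genes had 5 of 17, with Tbx4 (299 and 36 in 2 regions), Tbx21 (135 and 19), Tbx15 (130 and 29) and the forelimb gene Tbx5 (85 and 6). Sox genes had 3 of 20, Sox14 (263 and 37), Sox7 (133 and 14) and Sox21 (52 and 8), and the cartilage factors Sox9, Sox5 and Sox6 were not among them. The bHLH list had 11 of 57, with Hand2 (215 and 20), Hand1 (181 and 20), Hes2 (133 and 14) and Hes5 (85 and 10), factors of heart, limb and Notch signalling. Zinc finger and AP-2 factors had 14 of 61, with Prdm12, Gata4 (171 and 21), Osr1 (151 and 10) and Prdm14 (145 and 25).

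**Figure D5:**
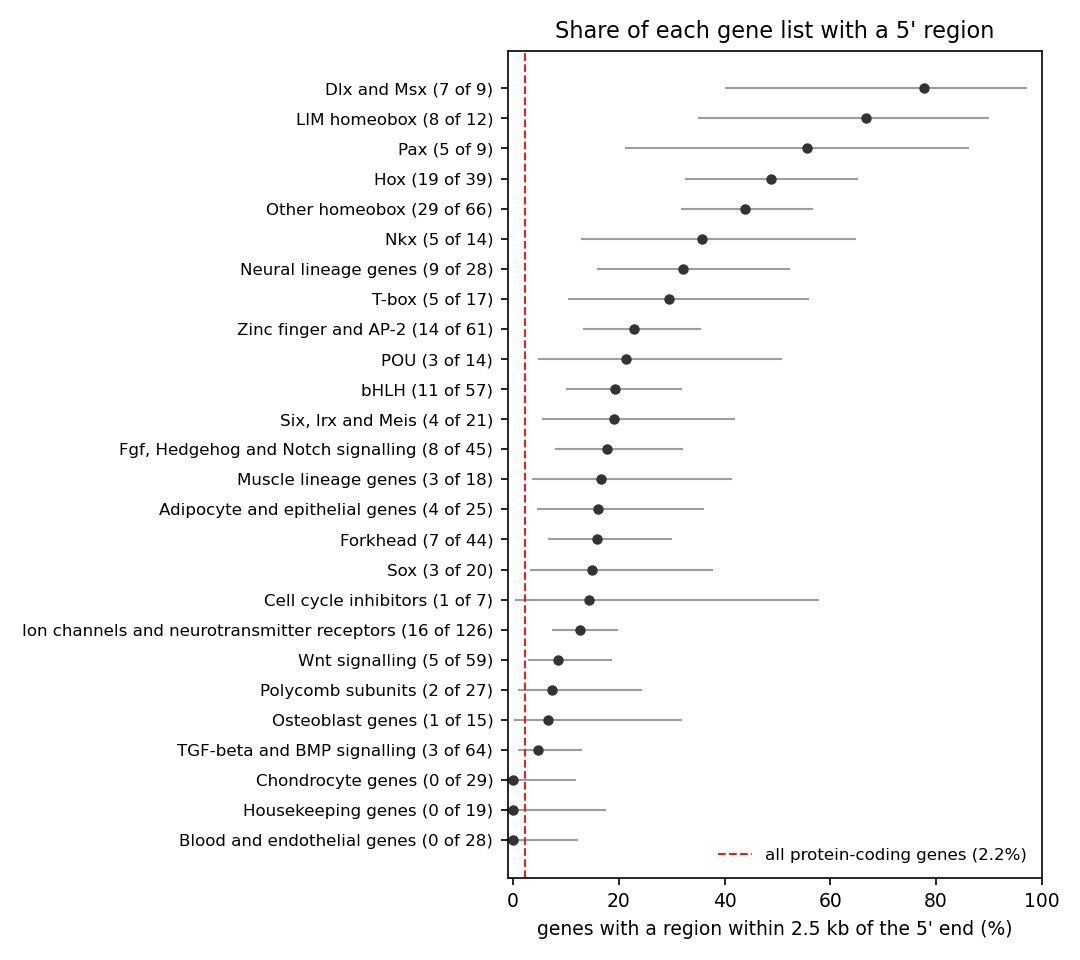
Percent of the genes of each list that had a region within 2.5 kb of the 5′ end (x axis; points, with 95% Clopper-Pearson intervals as bars; numbers beside the names, genes with a region of genes in the list). The dashed line is the 2.2% of all protein-coding genes, and the Dlx and Msx, LIM homeobox, Pax and Hox lists lie farthest to its right, from 48.7% to 77.8%.

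Signalling genes had a 5′ region in 16 of 168 cases (9.52%, 5.54 to 15). In the Wnt list 5 of 59 had one, the ligands Wnt1 (234 ChIP and 21 input tags), Wnt3a (134 and 24), Wnt7b (91 and 10) and Wnt7a (71 and 10) and the receptor Fzd10 (68 and 0). In the TGF-β and BMP list 3 of 64 had one, all ligands, namely Nodal, Gdf7 (108 and 4) and Bmp4 (30 and 5), a share of 4.69% (0.977 to 13.1) with the background of 2.2% inside its interval. In the Fgf, Hedgehog and Notch list 8 of 45 had one, led by Fgf4 (138 and 16), Fgf3 (126 and 20), the Notch ligand Dll1 (115 and 11) and Fgf9 (60 and 4).

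Of the genes that the study singled out for this mark or followed beside it, Cdkn2a, which encodes brakes of the cell cycle, had 1 of its 3 regions within the limit, 1735 bp inside the gene, with 51 ChIP and 6 input tags. It was the only 1 of 7 cell cycle inhibitors with a 5′ region, a share of 14.3% (0.361 to 57.9) with the background of 2.2% inside its interval. Wnt10a, a Wnt ligand, had 3 regions with the nearest 2856 bp from the 5′ end, beyond the limit. Lef1, Fzd3, Lrp4, Tgfbr1, Tgfbr2, Fzd6 and Lrp5 had no region in this list, which holds only peaks of a height of 8 or more and therefore does not show that the mark is absent there. The paper reports the mark at the loci of Wnt10a and Lef1, so the list lacks a gene that the paper calls marked. The paper counts more marked genes than the 922 named in this list, cites another deposited ChIP-seq series as well and used ChIP-PCR at single loci. Lef1 is thus not the only gene on which the 2 differ. Of the other genes without a region here, the paper states that Fzd6 and Lrp5 lacked the mark and that Tgfbr2 had no significant one.

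The list carries no RNA, so the labelled cell type could be set only against the places of the mark. None of 29 chondrocyte genes, including Sox9, Col2a1, Acan, Comp, Matn1 and Col10a1, had a 5′ region (0 to 11.9%), which does not differ from the background of 2.2% and so does not check the label. Ihh, the signal of prehypertrophic chondrocytes, had a region 4579 bp away. None of 19 housekeeping genes, such as Actb and Gapdh, had one either (0 to 17.6%), again near the background. As only peaks of a height of 8 or more are listed, weaker marks at these genes cannot be seen. Of osteoblast genes 1 of 15 had one, Sost, an inhibitor of Wnt signalling made by osteocytes, with 140 ChIP and 6 input tags in 2 regions, a share of 6.67% (0.169 to 31.9) with the background inside its interval. The list does not stand for this lineage. Col1a1, a gene of type I collagen outside the list and named after its values were seen, had a 5′ region (52 and 2 tags).
Neural genes had a 5′ region in 9 of 28 cases (32.1%, 15.9 to 52.4), with Tubb3 (80 and 5 tags), Neurod2 (79 and 8), Neurog1 (67 and 8) and Chat (54 and 5). That count depended on the limit, with 2 genes at 1000 bp and 15 at 5000 bp, and on the signal, with 4 genes at a −log10 q-value of at least 50 and 1 at a height of at least 10. The Tubb3 region was shared with Mc1r and the Chat region with Slc18a3. With only the nearest gene of a region counted, 8 neural genes remained. Muscle genes had one in 3 of 18 (16.7%, 3.58 to 41.4), Pax7, Pax3 and Acta1 (66 and 10), none of them within 1000 bp, and Myod1 and Myog had none. Adipocyte and epithelial genes had one in 4 of 25, Ovol1 (132 and 21), Cldn7 (56 and 9), Cdh1 (48 and 17, with high input) and Ucp1 (44 and 4). These lists overlap with others, since Neurod2, Neurog1, Pax7, Pax3 and Ovol1 are also counted in the transcription factor lists above. None of the 28 listed blood and endothelial genes, such as Tal1, Spi1, Pecam1 and Cdh5, had one (0 to 12.3%, near the background), and 5 of them, Flt1, Myb, Gata2, Pax5 and Cd3e, had further regions. The list does not stand for these lineages, since genes outside it that were named after their values were seen had 5′ regions, among them Flt3 (144 and 14), a receptor of blood progenitors, Flt4 (134 and 11 in 3 regions), a receptor of lymphatic vessels, Lmo2 (46 and 3), a factor of blood formation, and Cd3d with Cd3g (29 and 0 in a shared region), parts of the T cell receptor complex. Whether these genes were silent in the culture was not measured.
Ion channels and neurotransmitter receptors had a 5′ region in 16 of 126 cases (12.7%, 7.44 to 19.8). Among them were Kcnh3 (197 and 31 tags), Adra2b (118 and 7), an adrenergic receptor, and Kcna1 (111 and 16). Of 27 Polycomb subunits Pcgf1 (143 and 16) and Cbx8 (99 and 10) had one, each a part of a form of PRC1, another Polycomb complex. This share of 7.41% (0.91 to 24.3) also has the background inside its interval.

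Of the 9 microRNA loci, whose 5′ end is that of the hairpin and not that of the primary transcript, Mir196a-2 had the most tags in a single region, with 197 ChIP and 10 input tags, a ratio of 19.7 (10.5 to 41.7). Its region covered the hairpin and was shared with Hoxc9. Mir196a-1 was also covered, with 122 and 12 tags. Mir10b, beside Hoxd4, had 116 and 10 tags in the region it shared with that gene. So 3 of the 9 loci lie in Hox clusters and carry mature arms printed above. No share over all microRNA genes was computed, so these counts are a description only. The number of loci depended on the setting, with 4 at 1000 bp, 15 at 5000 bp and 4 at a height of at least 10. Mir9-3 and the Mir124a loci are known from neurons. Mir9-3 had 2 regions, with 130 and 11 tags upstream and 94 and 11 past the hairpin, Mir124a-3 had 111 and 11 tags and Mir124a-1 had 41 and 8. Mir203, a microRNA of skin, had 86 and 6 tags, and Mir1-1, a microRNA of muscle, had 77 and 13. The regions of Mir203, Mir1-1 and Mir124a-1 lay past the hairpin, as did both regions of Mir26b. Mir26b had 81 and 27 tags in one region and 40 and 10 in the other, with ratios of 3 (1.92 to 4.83) and 4 (1.97 to 8.97) and input above 2 times the floor.
The long noncoding genes with the most tags stood beside marked transcription factors. The following were named after their values were seen. Vax2os1 (345 ChIP and 36 input tags) and Vax2os2 (427 and 40), which are 1 RefSeq gene, share 2 regions with Vax2, and a further region (82 and 4 tags) lies within the limit of Vax2os2 alone. Six3os1 (306 and 31) and Dlx6as (171 and 13) share all their regions with Six3 and Dlx6.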

How the data were processed

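H3K27me3 ChIP-seq was analysed from the deposited list of regions of the ChIP library, which also holds the input library's tags. Per the labels, reads were mapped to mm9 with the mapper of DNA Nexus and regions were called with QuEST against input, with settings not given in the sources used here. The authors deposited whole counts of ChIP and input tags per region, a ratio of both (tag enrichment), a signal height of each smoothed profile and a −log10 q-value. The deposited ratio holds input at or above 9.21 tags per kb, found from the values. Whether positions count from 0 or 1 is not stated. The methods of the study name 10% serum and another version of the ChIP kit than the labels, which give 5% serum.

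Rows were grouped by region, and regions were kept where the smallest distance to the 5′ end of a named gene was at most 2500 bp. Genes were matched by symbol, older symbols included, to RefSeq (514 of 517). Of 878 listed symbols 877 matched. Promoters and microRNAs came from RefSeq, GRCm38.p6. Named genes were, per list, the 4 with the most ChIP tags, the 10 leading regions by tags, length and height, those with the most regions or genes, those next to the limit and those the study names. Some of the genes this rule names are not reported here. The members, the lists and the genes were chosen with earlier results of these data known. No test was made with 1 library of each kind. The placing of regions and the intervals were checked on made-up data with independent tags, a setting that the mostly even input counts may not meet. Scripts ran under Python 3.11.15 with pandas 2.3.3 for tables, numpy 2.4.6, scipy 1.17.1 for intervals and, for plots, matplotlib 3.10.9.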

Additional observations from a re-analysis of the deposited data

How the results depend on the processing

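With 1 ChIP and 1 input library no replicate could be left out. No paired analysis was possible because each group had 1 sample. A limit on the distance of 1000 bp left 307 regions and 295 genes, and one of 5000 bp gave 885 regions. With only regions of a ChIP height of at least 10 there were 93 regions and 99 genes, with a median length of 1488 bp, a median height of 10.8, a median tag enrichment of 6.03 (5.62 as reported), a pooled tag ratio of 7.25 and a transcription factor share of 28.3%. With a −log10 q-value of at least 50 there were 324 regions and 304 genes, a median length of 1775.5 bp, a median height of 8.98 and a transcription factor share of 29.9%. Both limits keep longer or higher regions by construction. Joining regions within 3000 bp gave a median length of 1382 bp and a median tag enrichment of 5.52. Leaving out regions with input of at least 2 times the floor raised the ratio to 8.01. Of these 49 recomputed summary values the other 31 stayed within 1.5 times (counts) or within the reported interval, among them all 7 when only the nearest gene of a region was counted. Counts per gene list, of regions that cover a 5′ end and of microRNA genes were recomputed 196 times, and 57 moved by over 1.5 times, 24 with a height of at least 10, 17 at 1000 bp, 8 at 5000 bp and 8 with the q-value limit. At 1000 bp Hox genes went from 19 to 11, neural genes from 9 to 2, Nkx genes from 5 to 1 and muscle genes from 3 to 0. At 5000 bp T-box genes went from 5 to 10, neural genes to 15 and blood and endothelial genes from 0 to 4. With a height of at least 10 Hox genes numbered 4. Merging, the input limit and the nearest gene moved none of these counts by as much. The total depth is not in the list, regions under a height of 8 were not listed, and a median of 8 input tags per region leaves the ratio of a single region wide.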

Other observations

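Genes outside the lists had 5′ regions as well, and those below were picked after their values were seen. Cyp26a1 (71 ChIP and 2 input tags) and Cyp26c1, which had 2 regions with 78 and 12 tags and 85 and 5 tags, encode enzymes that degrade retinoic acid. Aldh1a2, which encodes an enzyme that makes it, had 23 and 6 tags, a ratio of 3.83 (1.52 to 11.5). No list of this pathway was used, so nothing is said of the pathway as a whole. The genes of the RNA-binding proteins Lin28 (104 and 11 tags) and Lin28b (76 and 4 tags), known from embryonic cells, were each covered at the start. Col1a1, which encodes a chain of type I collagen and is not in any list used here, had a region 280 bp upstream of its 5′ end with 52 ChIP and 2 input tags, a ratio of 26.0 (6.84 to 220).

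By chromosome, the share of regions at 5′ ends ran from 17.5% of 97 on chromosome 13 to 42.9% of 84 on chromosome 15. On the X chromosome the list held 2 regions, none at a 5′ end.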
